A study of Bos taurus with 18 samples.

Results

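Alcohol and aldehyde dehydrogenases were followed here across 18 RNA-seq libraries of rumen papillae, small outgrowths that enlarge the absorbing surface of the rumen wall. The members were 10 gene symbols (ADH6, ADH5, ALDH1A1, ALDH1A3, ALDH2, ALDH3A1, ALDH3A2, ALDH7A1, ALDH9A1 and ALDH1L1), matched to the gene names of the deposited counts. They took in 11 of 27270 gene rows, because ADH6 stands beside 2 Ensembl identifiers. All 11 passed the filter on low counts, 2 of them (ALDH3A1 and the ADH6 identifier ENSBTAG00000006986) only through their grain libraries. The list was drawn up with earlier results of these data known. ADH6 was chosen by its counts, which differ widely between libraries. ALDH1L1 had already been named for its fold change between diets. Both are therefore described without a test, and the other members were listed as relatives of the family.

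Papillae came from 9 non-lactating, rumen-cannulated Holstein cows, 5 controls and 4 given a supplement that the labels name only as PHY. Biopsies were taken from each cow at 2 times, first while it ate 100% forage and later when grain feeding supplied 65% concentrate. This gave 5 libraries each for forage_control and grain_control, and 4 each for forage_PHY and grain_PHY. The labels do not tie libraries to cows, give no ages, and do not say whether PHY was already fed at the forage biopsy. Libraries of the same cows were therefore treated as independent. Library numbers follow the order of deposit within a group and only name a library.

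Alcohol dehydrogenases are zinc enzymes that use NAD to turn alcohols into aldehydes or ketones. Aldehyde dehydrogenases then oxidise aldehydes to acids. Between them they clear ethanol and acetaldehyde, which rumen microbes also form, remove aldehydes made by lipid peroxidation, and make retinoic acid from retinal in epithelia. ALDH1L1 differs from the rest in acting on a folate cofactor.

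Libraries held 3953060 to 34471682 reads, and grain_PHY 1, grain_control 1 and grain_control 4 held the fewest. Levels are given as CPM, read counts scaled to library size. These 3 also had the highest summed CPM over 144 olfactory receptor genes, a family largely silent outside the nose: 125.4 to 345.3 CPM against 16.3 to 79.8 in the other libraries. The 15 keratinocyte markers summed to 10595 to 24587 CPM on forage and 5349 to 19063 CPM on grain, and every library held them. Of those markers 3 were lower on grain, 2 were higher and 10 were not called (all genes: 13.8% lower, 18.1% higher). In bulk tissue, fewer cells of a type and less RNA per cell cannot be told apart.

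ADH6, a less studied relative of the liver alcohol dehydrogenases, was high in some libraries and near its lowest level in others within every group. The pattern lay in one of its identifiers, ENSBTAG00000006991. In control cows on forage the 5 libraries stood at 1.19, 1.74, 3.35, 31.6 and 51.3 CPM. In PHY cows on forage they stood at 2.27, 37.6, 52.1 and 65.7 CPM. On grain the control libraries were at 2.42, 3.66, 4.11, 21.4 and 43.4 CPM. Each of these groups held both high and low libraries, with no value between 4.11 and 21.4 CPM. The grain_PHY libraries were at 3.61, 13.3, 15.4 and 24.0 CPM, a narrower range. Over all libraries the largest gap in ratio was 3.23-fold, from 4.11 CPM (grain_control 1) to 13.3 CPM (grain_PHY 2), with 8 libraries below it and 10 above.

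**Figure D1:**
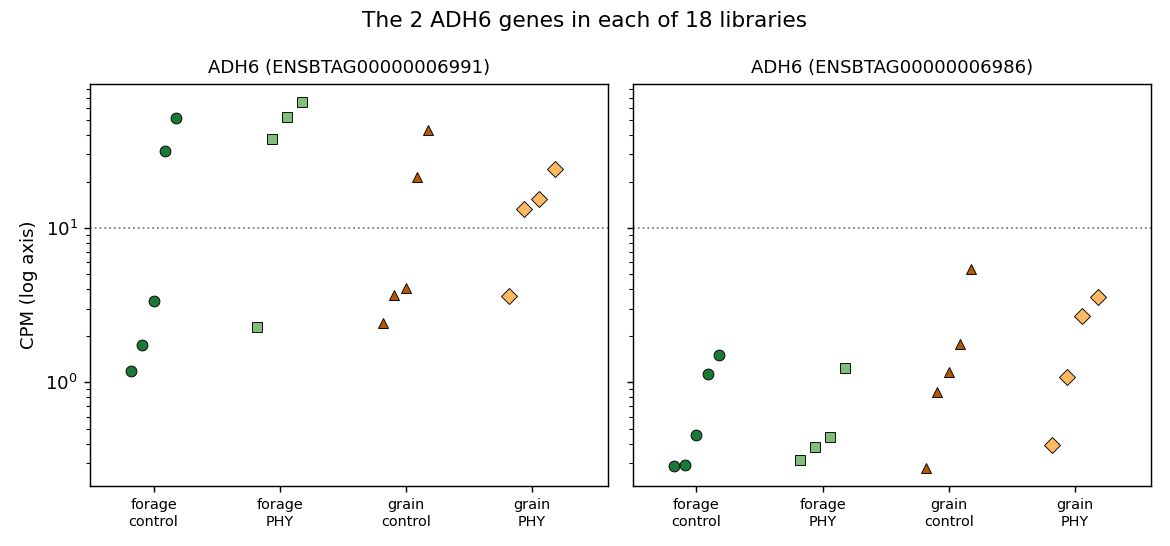
CPM (log axis) of the 2 ADH6 genes in each library, by group and sorted by value within a group. The dotted line is at 10 CPM. ENSBTAG00000006991 has 10 libraries above the line and 8 below, in all 4 groups, and ENSBTAG00000006986 has none above.

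The low libraries were not empty of ADH6 reads. Counts of ENSBTAG00000006991 ran from 23 (forage_control 1) to 2107 (forage_PHY 2), so all 18 libraries passed 10 reads and 1 CPM. The step to 5 CPM left 10 libraries, and so did 10 CPM, a level chosen after the values were seen. The ratio of the highest to the lowest library was 55.4. The number of libraries under 10 CPM was the same on both diets within each arm, 3 of 5 in control cows and 1 of 4 in PHY cows. The low libraries also carried the same numbers on both diets: control 1, 2 and 4 at 1.74, 3.35 and 1.19 CPM on forage and at 4.11, 3.66 and 2.42 CPM on grain, and PHY 3 at 2.27 and 3.61 CPM. The same cows were sampled on both diets, and the deposit order may or may not be the order of cows. No label names the cow, so whether the low libraries came from the same animals was not tested.

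The spread between libraries is what ADH6 was chosen for, so its size is a description. The within-group SD of ENSBTAG00000006991 was 1.97 on the scale of log2(CPM + 0.1). Only genes averaging at least 10 CPM were measured. Among them ALDH2 had 0.68, ALDH1A1 0.54, ALDH7A1 0.45, ALDH9A1 0.40, ADH5 0.35 and ALDH3A2 0.33 on the same measure. ALDH1L1, ALDH3A1, ALDH1A3 and ENSBTAG00000006986 averaged less and have no value here. As a percentage of mean CPM, the SD of ALDH1L1 was 124.4 in forage_control, 72.96 in forage_PHY, 96.56 in grain_control and 72.38 in grain_PHY. For ADH6 (ENSBTAG00000006991) it was 127.1, 69.21, 117.9 and 59.52 in the same order. Spearman's rho of ADH6 (ENSBTAG00000006991) with total reads was 0.35 and with olfactory receptor CPM −0.28 (18 libraries, a description). The shallowest library, grain_PHY 1, had 142 reads or 15.4 CPM, and forage_control 4, with 31174477 reads, had 29 reads or 1.19 CPM. The part of depth in the pattern was not tested.

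Group means of ADH6 (ENSBTAG00000006991) were 17.8 ± 22.7 CPM (SD, n = 5) in forage_control, 39.4 ± 27.3 (n = 4) in forage_PHY, 15.0 ± 17.7 (n = 5) in grain_control and 14.1 ± 8.37 (n = 4) in grain_PHY. All pairs of groups compared overlapped. The log2 difference of grain and forage over both arms was −0.87 ± 0.84 (SE). It was −0.24 ± 1.10 in control cows and −1.50 ± 1.26 in PHY cows, and PHY against control differed by 1.14 ± 1.16 on forage and −0.12 ± 1.19 on grain. Each of these differences was close to its standard error or smaller.

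The other ADH6 identifier, ENSBTAG00000006986, was low throughout, with 4 to 45 reads a library. It averaged 0.671 ± 0.478 CPM over 9 forage libraries and 1.92 ± 1.70 CPM over 9 grain libraries, with overlapping ranges. Its highest libraries were grain_control 1 at 5.44 CPM and grain_PHY 1 at 3.57 CPM, both among the shallowest. Across the 18 libraries the 2 ADH6 genes had a Spearman's rho of −0.22 with each other. The low gene had rho 0.79 with olfactory receptor CPM. Its log2 diet difference was 1.54 ± 0.58, and −0.18 ± 0.59 with olfactory receptor CPM as a covariate. The filter minimum of 0.538 CPM was met by 3 forage and 7 grain libraries of this gene. It passed only through the diet where it was high, so the difference is a description and no support. Near-identical paralogs can share reads, and the counting method is not given, so the split of reads between these genes is uncertain.

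In RefSeq (assembly ARS-UCD2.0) ADH7, ADH1C, ADH6, ADH4 and ADH5 lie in this order on chromosome 6. The pseudogene LOC781689 and the protein-coding LOC523510 lie between ADH1C and ADH6, and the pseudogene LOC616936 between ADH6 and ADH4. The named ADH neighbours did not follow the high and low pattern of ENSBTAG00000006991: rho was −0.15 for ADH7, −0.13 for ADH1C, −0.08 for ADH4 and −0.05 for ADH5. With ENSBTAG00000006986 rho was 0.86 for ADH1C, 0.85 for ADH4 and 0.57 for ADH7. Those 3 neighbours and that ADH6 gene all had low counts and a negative rho with total reads.

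Among 15083 other named genes averaging 1 CPM or more, those most like ADH6 (ENSBTAG00000006991) by Spearman's rho over the 18 libraries were COL8A2 (0.83), a collagen, BIN1 (0.75), NES (0.74), an intermediate filament protein, SOX12 (0.73), a transcription factor, and SLC25A29 (0.72), a mitochondrial carrier. These genes head a ranking of 15083 genes over the same 18 libraries. Some high values arise from such a ranking alone, so no test is given. Levels of these genes varied less than those of ADH6 (ENSBTAG00000006991). COL8A2 ran from 8.17 to 22.7 CPM and NES from 14.2 to 41.7 CPM.

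Across the 8 tested gene rows, grain against forage over both arms gave 5 calls by edgeR (adjusted p under 0.05 over all genes). ALDH3A1 rose, and ADH5, ALDH2, ALDH7A1 and ALDH9A1 fell. Calls were common in this contrast: 31.9% of 22202 genes were called, 18.1% higher and 13.8% lower. At an unadjusted p under 0.05 there were 6 members of 8 and 50.3% of all genes, and DESeq2 called 6 members and 41.9% of all genes. ALDH3A1 entered the test only through its grain libraries, the diet where it was high. The median log2 difference was −0.50 over the 8 members and 0.20 over all genes. The member count was 0 without grain_PHY 1, where 0.00445% of all genes were called. It was 2 without forage_control 4, forage_PHY 1, forage_PHY 2, forage_PHY 3, grain_control 1 or grain_control 4 (9.27% to 21.4% of all genes). The member count was 3 without forage_control 1, forage_control 5 or grain_PHY 2 (19.3% to 22.6% of all genes). It was 0 without the 3 shallowest libraries, 0 with olfactory receptor CPM as a covariate and 0 after thinning every library to 3953060 reads. Without the 3 shallowest libraries and with the covariate no gene of the whole table was called either, and thinning left 0.492% of 16455 genes called.

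**Figure D2:**
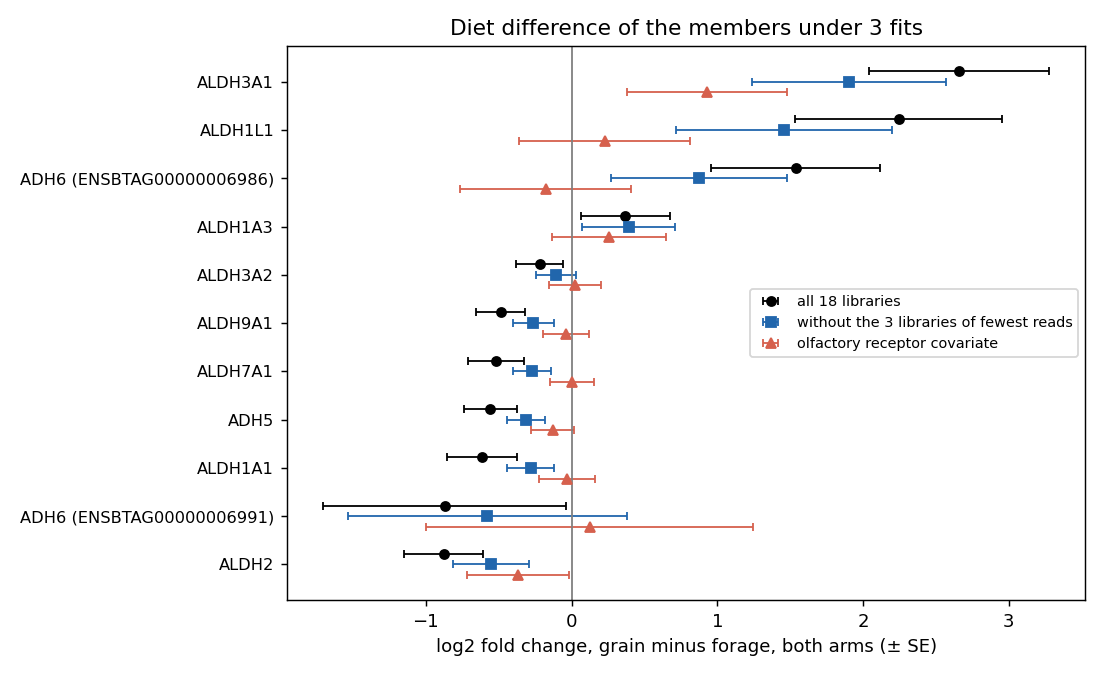
Log2 difference of grain and forage over both arms (x axis, ± SE) for the 11 member genes in 3 fits: all 18 libraries, without the 3 libraries of fewest reads, and with log2 olfactory receptor CPM as a covariate. Apart from ALDH1A3, the values lie nearer 0 in both other fits, and with the covariate ALDH7A1 and ALDH9A1 lie at 0.0025 and −0.04.

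ADH5, the glutathione-dependent formaldehyde dehydrogenase found in nearly all cells, was lower on grain. On forage the control libraries stood at 127.7, 155.1, 164.5, 196.7 and 196.7 CPM and the PHY libraries at 163.7, 172.7, 182.8 and 200.7 CPM. On grain the control libraries were at 92.6, 93.0, 123.2, 141.7 and 165.0 CPM and the PHY libraries at 67.3, 98.4, 141.6 and 146.7 CPM. All 4 grain values of PHY cows lay under all 4 forage values, and in control cows the diets overlapped. Such separation was common: the diets did not overlap in PHY cows for 30% of 22202 genes and for 6 of the 11 member genes (ADH5, ALDH2, ALDH3A1, ALDH7A1, ALDH9A1 and ALDH1L1). In control cows it held for 1.35% of genes and for 0 members. ALDH1L1 was listed for its diet difference and ALDH3A1 passed the filter only through its grain libraries, so neither adds support. The log2 difference of ADH5 was −0.56 ± 0.18 (edgeR adjusted p = 0.0317), −0.45 ± 0.25 in control cows and −0.66 ± 0.28 in PHY cows. The lowest library was grain_PHY 1. The call was lost without any of 9 libraries: forage_control 1 or 4, forage_PHY 1, 2 or 3, grain_control 1 or 4, or grain_PHY 1 or 2 (adjusted p from 0.0538 to 0.0866).

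ALDH2, the mitochondrial enzyme that clears acetaldehyde made from ethanol, had the largest log2 fall among the 8 tested rows. Forage libraries of control cows stood at 43.2, 46.2, 63.1, 115.0 and 115.9 CPM, and those of PHY cows at 64.7, 65.1, 79.7 and 95.1 CPM. Grain libraries of control cows stood at 24.4, 39.4, 44.3, 52.7 and 88.7 CPM, and those of PHY cows at 13.3, 24.7, 45.7 and 54.1 CPM. The control libraries overlapped between diets and the PHY libraries did not. The mean went from 76.4 ± 27.1 CPM (SD, n = 9) to 43.0 ± 22.05 CPM (n = 9), a log2 difference of −0.88 ± 0.27 or 1.84-fold lower (edgeR adjusted p = 0.0257). Without grain_PHY 1 it was −0.71 with an adjusted p of 0.0762, and with the olfactory receptor covariate −0.37 ± 0.35.

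**Figure D3:**
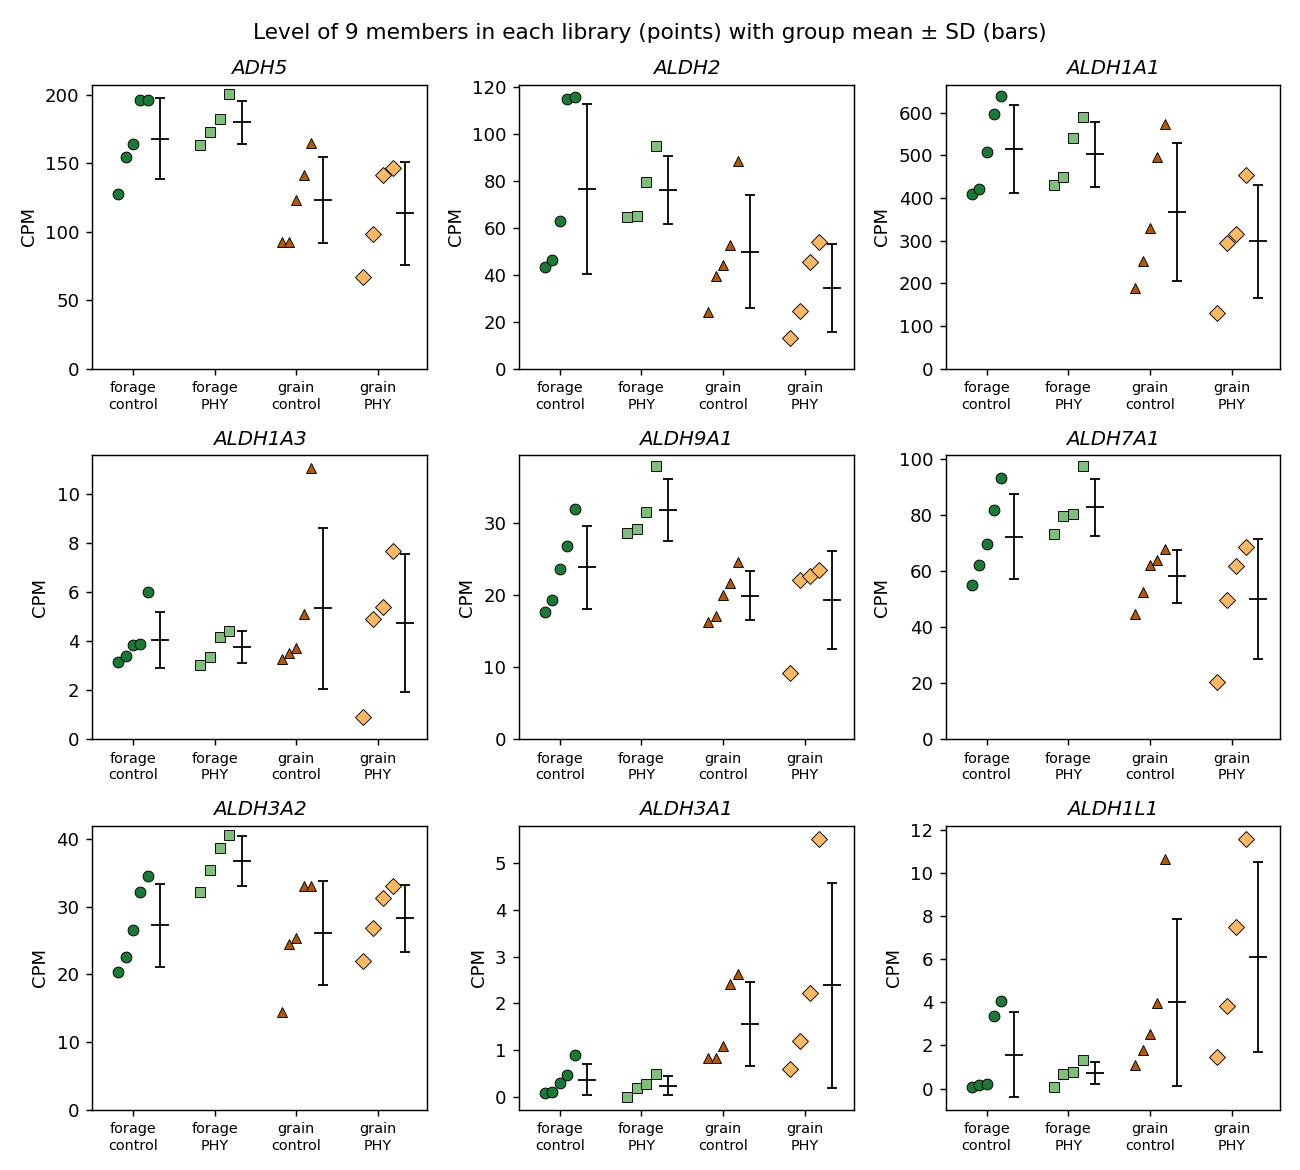
CPM of 9 members in each library (points, sorted by value within a group) with the group mean and SD beside them (bars). ADH5, ALDH2, ALDH1A1, ALDH7A1 and ALDH9A1 have their lowest library in grain_PHY, and ALDH3A1 and ALDH1L1 their highest there.

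ALDH1A1 and ALDH1A3 are cytosolic enzymes that make retinoic acid from retinal. ALDH1A1 averaged 515.3 ± 102.6 CPM (n = 5) in forage_control, 502.9 ± 75.9 (n = 4) in forage_PHY, 367.8 ± 162.2 (n = 5) in grain_control and 299.2 ± 132.7 (n = 4) in grain_PHY. Its grain libraries spread more widely than its forage libraries, from 131.0 to 572.7 CPM against 409.1 to 640.0 CPM, and the diets overlapped in both arms. Its log2 difference of −0.62 ± 0.24 just missed the threshold (edgeR adjusted p = 0.051). It passed without forage_control 2 or 3, grain_control 2 or 5, or grain_PHY 3 (adjusted p from 0.0296 to 0.0498) and in DESeq2 (adjusted p = 0.0262). With the olfactory receptor covariate it was −0.03 ± 0.19.

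ALDH1A3 had no call in either direction. Its forage libraries lay between 3.05 and 6.0 CPM and its grain libraries between 0.928 (grain_PHY 2) and 11.1 CPM (grain_control 3). Its log2 difference was 0.37 ± 0.31 (edgeR adjusted p = 0.316).

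ALDH3A1, a cytosolic enzyme of surface epithelia that oxidises aromatic and lipid-derived aldehydes, was called higher on grain from very few reads. The filter asked for 0.538 CPM in at least 4 libraries, which 8 grain libraries and 1 forage library of ALDH3A1 met. It passed only through the diet where it was high, and with the stricter filter (1 CPM in 9 libraries) it was not tested at all, so its call is no independent support for a difference. On forage the control libraries held 2, 3, 4, 7 and 15 reads and the PHY libraries 0, 6, 9 and 9. On grain the control libraries held 18, 19, 20, 20 and 36 reads and the PHY libraries 6, 20, 24 and 51. In forage_PHY 4, where the count was 0, a level of up to 0.219 CPM (3 reads) could have been missed. The mean was 0.312 ± 0.277 CPM over 9 forage libraries and 1.93 ± 1.55 CPM over 9 grain libraries, and the diets overlapped over control libraries but not over PHY libraries. The log2 difference was 2.66 ± 0.62, or 6.31-fold (edgeR adjusted p = 0.0202). It was 2.26 without grain_PHY 1 (adjusted p = 0.0629) and 0.93 ± 0.55 with the olfactory receptor covariate.

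ALDH3A2, the membrane-bound fatty aldehyde dehydrogenase, was not called. Means were 27.3 ± 6.09 CPM (n = 5) in forage_control, 36.8 ± 3.72 (n = 4) in forage_PHY, 26.1 ± 7.66 (n = 5) in grain_control and 28.3 ± 4.94 (n = 4) in grain_PHY. The log2 diet difference was −0.22 ± 0.16 (edgeR adjusted p = 0.264). Its sign turned to 0.023 with the olfactory receptor covariate and to 0.021 after thinning, both uncalled.

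ALDH7A1, which breaks down lysine and makes betaine from betaine aldehyde, was lower on grain. Forage means were 72.4 ± 15.3 CPM (n = 5) in control and 82.8 ± 10.3 (n = 4) in PHY cows, and grain means 58.2 ± 9.43 (n = 5) and 50.1 ± 21.3 (n = 4). Its 9 forage libraries ran from 54.9 to 97.5 CPM and its 9 grain libraries from 20.4 (grain_PHY 1) to 68.5 CPM, with no overlap between the diets in PHY cows. The log2 difference was −0.52 ± 0.19 (edgeR adjusted p = 0.0426), and 0.0025 ± 0.15 with the olfactory receptor covariate. Leaving out any of 13 libraries ended the call (adjusted p from 0.0513 to 0.102). They were forage_control 1, 4 and 5, all 4 forage_PHY libraries, grain_control 1, 2, 3 and 4, and grain_PHY 1 and 2. It also failed with DESeq2's size factors (adjusted p = 0.0513) and with the stricter filter (0.0569).

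ALDH9A1, which acts on aminoaldehydes on the way to carnitine and GABA, was lower on grain as well. Forage means were 23.9 ± 5.79 CPM (n = 5) in control and 31.9 ± 4.29 (n = 4) in PHY cows. On grain they were 19.98 ± 3.39 (n = 5) and 19.4 ± 6.79 (n = 4). The PHY libraries of the 2 diets did not overlap, with 28.7 to 38.02 CPM on forage and 9.21 to 23.5 CPM on grain, while those of control cows did. The log2 difference was −0.49 ± 0.17 (edgeR adjusted p = 0.0366), and −0.04 ± 0.16 with the olfactory receptor covariate. The call was lost without forage_control 4 or 5, forage_PHY 1, 2 or 3, grain_control 1, 2 or 4, or grain_PHY 1 (adjusted p from 0.0539 to 0.104), and with the stricter filter (0.0555).

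ALDH1L1 oxidises the folate cofactor formyltetrahydrofolate and is known as a liver and astrocyte gene. Its forage libraries held 2, 3, 5, 56 and 61 reads in control cows and 2, 14, 18 and 21 in PHY cows. Its grain libraries held 23, 31, 54, 62 and 88 reads in control cows and 15, 64, 81 and 107 in PHY cows. The control groups overlapped: forage_control 2 and 3, at 3.35 and 4.07 CPM, each lay above at least 3 of the 5 grain_control libraries. The PHY groups did not overlap, with 0.0623 to 1.32 CPM on forage and 1.47 to 11.6 CPM on grain. Means were 1.19 ± 1.49 CPM over the forage libraries and 4.94 ± 4.00 CPM over the grain libraries (n = 9 each). On the log2 scale they differed by 2.24 ± 0.71 (a description), and 0.23 ± 0.59 with the olfactory receptor covariate.

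Markers of liver cells and glia, the cell types known for ALDH1L1, were called higher on grain in part, and so were markers of red blood cells. The 6 hepatocyte markers had 3 called higher, 0 lower and 3 not called on grain, with a summed 5.52 to 17.2 CPM on forage and 9.63 to 44.6 CPM on grain. The 6 glial markers had 3 higher, 0 lower and 3 not called, with 6.07 to 24.3 CPM on forage and 12.8 to 46.2 CPM on grain. Of 5 red blood cell markers 3 were higher, 0 lower and 2 not called, with 1.47 to 7.95 CPM on forage and 4.62 to 21.7 CPM on grain. Over all genes 18.1% were called higher and 13.8% lower. The median log2 difference was 1.65 for red blood cell, 1.48 for hepatocyte and 1.23 for glial markers. None of these markers was at 0 in every library, and ALB, the main liver secretory product, averaged 0.515 CPM on forage and 1.33 CPM on grain. Their part in the ALDH1L1 difference was not tested.

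Members divided by how they moved with the olfactory receptor reads. Spearman's rho over the 18 libraries was 0.95 for ALDH1L1, 0.93 for ALDH3A1 and 0.79 for ADH6 (ENSBTAG00000006986). It was −0.94 for ALDH7A1, −0.79 for ADH5, −0.79 for ALDH9A1, −0.73 for ALDH1A1, −0.69 for ALDH2 and −0.61 for ALDH3A2. ALDH1A3 was at 0.20 and ADH6 (ENSBTAG00000006991) at −0.28. The members that were higher on grain had positive values and those lower on grain negative ones, ALDH1A3 included. Both axes of these relations share the library's depth, so no test is given.

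**Figure D4:**
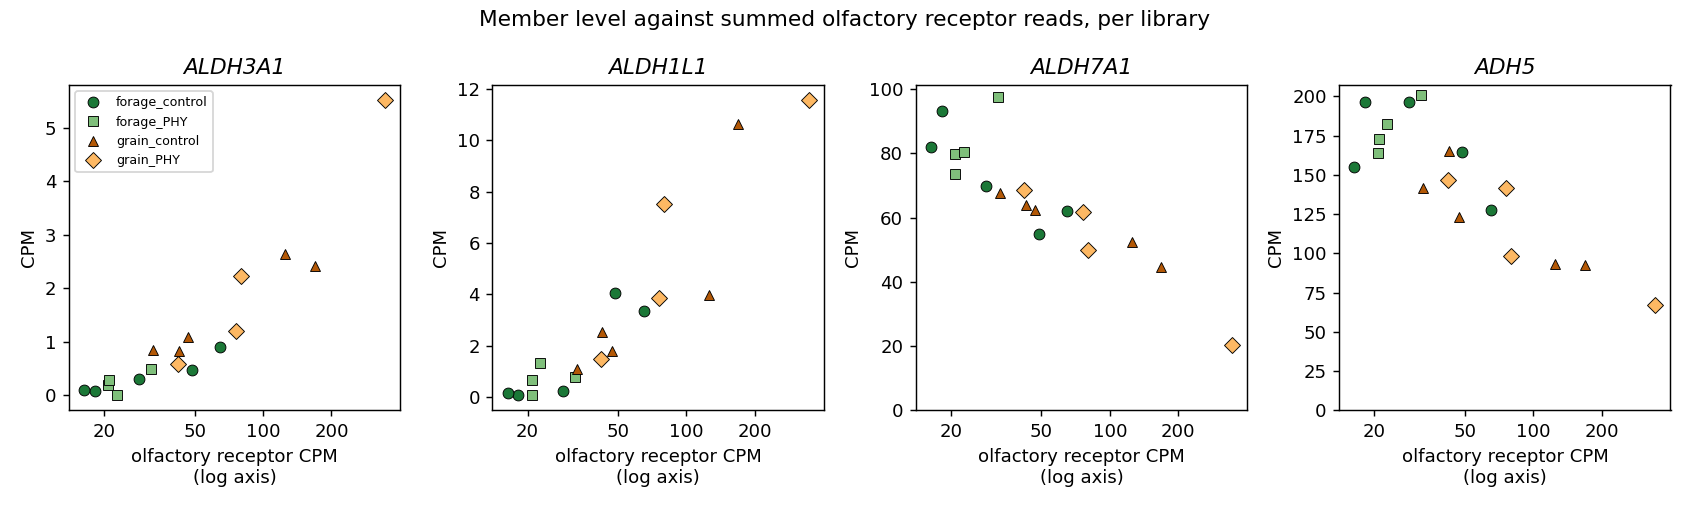
CPM of ALDH3A1, ALDH1L1, ALDH7A1 and ADH5 (y axes) against summed CPM of 144 olfactory receptor genes (log x axis) in each of 18 libraries, with groups by colour and shape. ALDH3A1 and ALDH1L1 are highest in grain_PHY 1, the library with the most olfactory receptor CPM (345.3), and ALDH7A1 and ADH5 are lowest there.

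Within one arm, the diet contrast called none of the 8 tested members by edgeR. In control cows 1 of 8, ALDH3A1, had an unadjusted p under 0.05 (11.3% of all genes did). ALDH3A1 passed the filter only through its grain libraries, so that count is no independent support for a difference. The log2 differences in control cows ran from −0.62 (ALDH2) to 2.08 (ALDH3A1), and DESeq2 also called 0. In PHY cows 6 of 8, ALDH3A1 among them, had an unadjusted p under 0.05 (39.7% of all genes did). The differences in PHY cows ran from −1.14 (ALDH2) to 3.23 (ALDH3A1). DESeq2 called 4 members there, 1 higher and 3 lower, and 23.7% of all genes. A fit of the PHY libraries alone called 1 member, ALDH2, lower on grain, and 24% of 18103 genes. Without forage_control 5 or grain_control 1 the PHY contrast called 1, ALDH3A1, higher on grain. Those fits called 7.56% and 6.64% of all genes. With all 18 libraries, 0% of 22202 genes were called by edgeR in either arm. The difference of the diet responses between arms called none of the 8 members (0 at an unadjusted p under 0.05, DESeq2 0) and 0% of all genes (1.99% unadjusted). For ALDH2 it was −0.52 ± 0.53, for ALDH9A1 −0.46 ± 0.34 and for ALDH3A1 1.15 ± 1.19.

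PHY and control cows were compared on each diet. By edgeR none of the 8 members was called on forage or on grain (0 at an unadjusted p under 0.05 in each, DESeq2 0 in each), and 0% of all genes were. Unadjusted, 1.6% of all genes passed on forage and 2.57% on grain. On forage the log2 differences ran from −0.53 ± 0.87 (ALDH3A1) to 0.43 ± 0.23 (ALDH3A2), with ALDH9A1 at 0.41 ± 0.24. On grain they ran from −0.53 ± 0.38 (ALDH2) to 0.62 ± 0.81 (ALDH3A1). ALDH1L1 was at −1.19 ± 1.02 on forage and 0.63 ± 0.94 on grain. The groups of the 2 arms overlapped for every member on both diets, and did not for 0.554% of all genes on forage and 0.716% on grain.

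Other genes of the family went both ways. Of 14 further ADH and ALDH genes 5 rose and 3 fell on grain over both arms, with 6 not called. Their median log2 difference was 0.86. Over all genes 18.1% rose, 13.8% fell and the median was 0.20. The retinal enzyme ALDH1A2 (1.33 ± 0.36, from 1.89 ± 1.29 to 4.55 ± 1.61 CPM) and the mitochondrial folate enzyme ALDH1L2 (1.25 ± 0.32) rose. The other 3 risers are named here after their values were seen. ALDH8A1 was at 1.67 ± 0.54. ADH1C, a main ethanol dehydrogenase of liver (1.68 ± 0.58), and ADH7, an epithelial alcohol dehydrogenase (1.71 ± 0.62), were called from 0.691 and 0.608 CPM on forage, and both passed the filter only through their grain libraries. ALDH4A1 of proline breakdown (−0.53 ± 0.13), ALDH6A1 of valine breakdown (−0.62 ± 0.17) and ALDH5A1 of GABA breakdown (−0.53 ± 0.15) fell. ALDH18A1, which makes proline, was at −0.36 ± 0.18 (edgeR adjusted p = 0.0991). The count of 8 went to 0 without grain_PHY 1, to 4 without forage_PHY 1 and to 5 without forage_PHY 2 or grain_control 1. Those fits called 0.00445%, 9.27%, 12.3% and 13.4% of all genes. The count was 0 with the covariate, without the 3 shallowest libraries and after thinning.

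Partners of these enzymes in ethanol, aldehyde and acetate handling also went both ways. Of 14 tested genes 6 fell and 2 rose on grain, with a median of −0.39 (all genes: 13.8% fell, 18.1% rose, median 0.20). Catalase CAT, which can also oxidise ethanol, went from 156.9 ± 28.4 to 109.8 ± 35.9 CPM (−0.54 ± 0.20, edgeR adjusted p = 0.0455). The reductases CBR4 (−0.68 ± 0.21) and AKR7A2 (−0.68 ± 0.20) and ACSS2, which activates acetate in the cytosol (−0.53 ± 0.16), fell. CYP2E1, the ethanol-oxidising cytochrome (2.04 ± 0.55), and ACSS3 (1.95 ± 0.48) rose from 0.512 and 1.13 CPM. ESD, which acts after ADH5 in formaldehyde removal, was at −0.42 ± 0.21 (edgeR adjusted p = 0.111).

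The retinoid pathway around ALDH1A1 and ALDH1A3 had 7 of 28 genes lower, 3 higher and 18 not called on grain. Its median was −0.19 (all genes: 13.8% lower, 18.1% higher, median 0.20). CYP26A1, which degrades retinoic acid, went from 174.9 ± 45.1 to 106.6 ± 39.2 CPM (−0.77 ± 0.20, edgeR adjusted p = 0.0216). The receptors RXRA (−0.69 ± 0.19) and RARA (−0.62 ± 0.16) and the carrier FABP5 (−0.89 ± 0.26) fell too. BCO1, which cleaves carotene to retinal, rose from 0.578 CPM (2.06 ± 0.60). RBP4, the plasma retinol carrier, was at −0.63 ± 0.48 (edgeR adjusted p = 0.281).

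Folate one-carbon genes, the setting of ALDH1L1, had 5 of 22 lower, 3 higher and 14 not called. Their median was −0.17 (all genes: 13.8% lower, 18.1% higher, median 0.20). The serine hydroxymethyltransferases SHMT1 (−0.61 ± 0.19) and SHMT2 (−0.55 ± 0.19), thymidylate synthase TYMS (−0.58 ± 0.18) and FPGS (−0.55 ± 0.18), which adds glutamates to folate, fell. FTCD, a folate enzyme of liver, rose from 0.606 ± 1.01 to 2.82 ± 2.51 CPM (2.54 ± 0.71). MTHFD1 was at −0.46 ± 0.20 (edgeR adjusted p = 0.0785).

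Substrate partners of ALDH3A2, ALDH7A1 and ALDH9A1 had 5 of 22 genes higher and 3 lower, with 14 not called. Their median was −0.16 (all genes: 18.1% higher, 13.8% lower, median 0.20). The shares called were near those of all genes. BBOX1 of carnitine synthesis (1.47 ± 0.48) and the betaine genes CHDH (1.58 ± 0.50) and BHMT (1.61 ± 0.56) rose from 0.940, 0.884 and 1.25 CPM. The sphingosine kinase SPHK2 (−0.62 ± 0.16) and the polyamine enzyme SAT1 (−0.58 ± 0.22) fell. MAOA, an amine oxidase that makes aldehydes, was at −0.45 ± 0.23 (edgeR adjusted p = 0.112) and SGPL1, which makes fatty aldehyde, at −0.21 ± 0.14 (0.227). CYP2E1, FTCD and BHMT also passed the filter only through their grain libraries. All of these pathway calls come from the contrast of both arms. None was made with the olfactory receptor covariate or without the 3 shallowest libraries, where no gene was called, and without grain_PHY 1 edgeR called 1 gene of the whole table.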

How the data were processed

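Total RNA of rumen papillae was made into libraries from 10 ng with a stranded total RNA kit, per the labels' protocols. The authors deposited raw counts of reads (whole numbers) for 27270 named Ensembl entries. Per the submitters' processing notes, bcl2fastq 2.20 split the reads and the build was bosTau9. Alignment, counting, annotation and strandedness were not given in the sources used here, so overlapping or antisense genes may share reads. The members, gene lists and tests were chosen with earlier results of these data known.

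Counts were tested in R 4.3.3 with edgeR 4.0.16, using robust quasi-likelihood fits of 4 group means to all 18 libraries. Low genes were removed by filterByExpr, which left 22202, and TMM scaled the libraries. Calls are at an adjusted p (Benjamini-Hochberg, over all genes of a contrast) under 0.05. CPM uses edgeR's effective library sizes, and olfactory receptor CPM uses total reads. The p-values measure only the spread between libraries, and the cows were sampled on both diets. The text names all members, and of each list the genes of highest mean and the called genes of smallest p, up to 4 each, of which it prints examples. ADH7, ADH1C and ALDH8A1 are outside this rule and were named after their values were seen. No gene lengths were used, so levels of different genes are not ranked. DESeq2 1.42.0 was an alternative. The edgeR script was tested on simulated counts of independent libraries with a smaller spread than these data, so that test checks only the code.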

Additional observations from a re-analysis of the deposited data

Results flagged for a closer look

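Within a group of 4 or 5 libraries, the highest or lowest one could stand apart by Dixon's criterion at 95%. It did in 5 of the 44 sets checked for the 11 member genes. Chance gives about 1 in 20 for normally distributed values, which CPM need not be. No rate over all genes was taken, so the count is not read as an excess. For ADH6 (ENSBTAG00000006986) forage_PHY 4 had 1.24 CPM against 0.443 CPM in the next library, and grain_control 1 had 5.44 CPM against 1.77 CPM. For ALDH1A3 forage_control 3 had 6.0 CPM against 3.88 CPM, and grain_control 3 had 11.1 CPM against 5.10 CPM. For ALDH9A1 grain_PHY 1, the library with the fewest reads, had 9.21 CPM against 22.1 CPM in the next lowest. No library of ADH6 (ENSBTAG00000006991) met the criterion. In each PHY group 1 low library faced 3 higher ones, but the higher ones spread too widely (37.6 to 65.7 CPM over the 2.27 CPM of forage_PHY 3).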

How the results depend on the processing

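No paired analysis was possible because no label says which cow a library came from or gives replicate numbers. Both biopsies of each cow are among the libraries, so the standard errors of the diet differences are those of an unpaired fit. Over both arms the 5 members called on grain against forage became 2 with a filter of at least 1 CPM in 9 libraries. They became 0 with the olfactory receptor covariate, 0 without the 3 libraries of fewest reads and 0 after thinning, and leaving out single libraries gave 0 to 6. The stricter filter called 30.4% of all genes, and the fits without single libraries 0.00445% to 43.3%. In PHY cows the 0 called became 4 with DESeq2 and 1 with only the groups compared, and 0 to 1 without single libraries. The same fits called 23.7%, 24% and 0% to 7.56% of all genes. For the other 4 contrasts the 0 called members stayed 0 under each alternative run. The 8 calls of the wider family became 0 with the covariate, 0 without the 3 libraries and 0 after thinning, and 0 to 11 without single libraries. Signs turned for ALDH3A2, to 0.023 with the covariate and 0.021 after thinning, and for ALDH7A1, to 0.0025 with the covariate. The untested ADH6 (ENSBTAG00000006991) went from −0.87 to 0.12 with the covariate, and ADH6 (ENSBTAG00000006986) from 1.54 to −0.18. The number of libraries with ADH6 (ENSBTAG00000006991) went from 18 at 10 reads to 10 at 5 CPM and 10 at 10 CPM. The median of all genes was 0.20 with TMM, 0.29 with DESeq2's size factors, 0.41 with no filter and −0.02 with the stricter one. The cause of these changes was not tested. At 0 to 15 reads a forage library, the level of ALDH3A1 is limited by depth.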
